A study of Mus musculus with 6 samples.

Results

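The mRNAs of the cytosolic ribosomal proteins were compared between 2 groups of RAW264.7 cells, a line of BALB/c mouse macrophages: a C2S group, kept for 24 h with this extract at 150 µg/ml, and a PM_control group, kept at 0 µg/ml. Each group held 3 libraries of total RNA, and neither the extract nor the control's abbreviation is spelled out in the labels. Members were chosen by symbol: protein-coding genes named Rpl or Rps followed by a digit, with Rplp0, Rplp1, Rplp2 and Rpsa, and without the Rps6k kinases and genes with pseudogene names. The rule found 86 genes, 52 with Rpl and 34 with Rps symbols, of 52636 genes in the deposited tables, and used no measured value. It also takes in Rps19bp1, which encodes a partner of Rps19 and not a ribosomal protein, and Rpl7l1, a relative of Rpl7 that acts in ribosome assembly. Whether replicates came from separate cultures is not stated, and p-values therefore reflect a spread that may be technical.

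The ribosome of the cytosol reads mRNA with its small subunit and joins amino acids with its large subunit. Its proteins are made in near-equal numbers, bound by chaperones, imported into the nucleus and built onto ribosomal RNA, and unassembled copies are broken down. Most of their mRNAs begin with a C and an unbroken stretch of C and T letters in the gene, the 5′ terminal oligopyrimidine (TOP) tract. Through this tract the growth kinase complex mTORC1 controls their translation, by way of the binding protein LARP1, so that their protein output can change with little change in mRNA. The genes are among the most highly expressed of the cell and have left many processed pseudogenes, intron-less copies of their mRNAs that can share sequencing reads with the parent gene.

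Start sites are shown for 9 members: the 5 largest rises with a window in the table (Rpl10a with both of its starts), the parent Rps27, and the paralogs Rps27l, Rpl22l1 and Rpl7l1, described further below. Each window runs 5′ to 3′ on the gene's strand, 15 bases before and 15 bases from the annotated RefSeq start (GRCm38.p6, the build of mm10), and capitals mark a C followed by at least 4 C or T letters that begins within 5 bases of that start.
Rplp2 (chr7:141447636-141447665, plus strand): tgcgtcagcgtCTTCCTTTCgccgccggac
Rpl10a (chr17:28328456-28328485, plus strand): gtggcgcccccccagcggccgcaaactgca
Rpl10a (chr17:28328550-28328579, plus strand): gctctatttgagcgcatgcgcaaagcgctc
Rps9 (chr7:3704026-3704055, plus strand): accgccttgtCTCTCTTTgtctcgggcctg
Rpl41 (chr10:128549154-128549183, minus strand): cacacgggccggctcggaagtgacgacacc
Rpl28 (chr7:4792950-4792979, plus strand): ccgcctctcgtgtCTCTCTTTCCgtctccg
Rps27 (chr3:90213634-90213663, minus strand): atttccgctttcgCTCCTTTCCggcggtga
Rps27l (chr9:66946071-66946100, plus strand): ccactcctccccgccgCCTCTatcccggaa
Rpl22l1 (chr3:28805493-28805522, plus strand): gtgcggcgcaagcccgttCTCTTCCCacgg
Rpl7l1 (chr17:46782642-46782671, minus strand): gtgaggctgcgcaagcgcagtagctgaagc
The tracts of Rplp2, Rpl28 and Rps27 are 9 or 10 letters long, those of Rps9 and Rpl22l1 8 letters, that of Rps27l 5 letters, and the windows of Rpl10a, Rpl41 and Rpl7l1 have none that begins so near the start. A further annotated start of Rps27l (chr9:66946398-66946427), not shown, has none either. RefSeq promoter windows (250 bases before to 50 after a start, any start of a gene counted) were matched for 66 of the 86 members. Such a tract was found within 5 bases of a start in 30 of the 66 (45.5%, 95% Wilson interval 34.0 to 57.4%), against 21.2% of 27025 genes and 23.8% of the 8470 tested protein-coding genes. It was counted from any such C, so that the run of C and T letters could begin further upstream. The start base itself was a C followed by at least 4 C or T letters, in a tract that could begin further upstream, in 21.2% of members against 3.01% of all genes. Tested members with a tract within 5 bases stood at a median log2 fold change of 0.18, and at 0.20 where no tract was found.

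Of other promoter motifs, searched on both strands, the ETS-type letters CCGGAAG were in 39.4% of members' windows against 9.93% of all genes and 22.5% of tested protein-coding genes. Their reverse complement can overlap a TOP tract. The SP1-type letters GGGCGG were in 62.1% against 38.2% and 70.3%, the YY1-type letters AAGATGG in 15.2% against 7.28% and 9.01%, and the E-box CACGTG in 9.09% against 8.09% and 12.1%. TATAAA, searched on the gene's strand 15 to 50 bases before the start, was in 1.52% of members, only in Rpl22l1. It was in 2.91% of all genes and 1.33% of tested protein-coding genes. A match of letters is a description of the window and not a measured binding site.

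Libraries held between 8594473 and 10665867 estimated counts, and 3 counts in a library, the least taken as detected, equalled 0.281 to 0.349 CPM (counts scaled to a common library total; levels given below also use edgeR's TMM factors). Of 10 macrophage markers 9 had a mean of at least 1 TPM, with a summed level of 7006 to 7284 TPM with C2S and 6817 to 7141 TPM without. None of the 14 fibroblast, epithelial and lymphocyte markers reached a mean of 1 TPM. The summed level of the fibroblast markers was at most 0.21 TPM in a library and that of the epithelial markers at most 0.14 TPM. The T and B cell markers summed to 1.28 to 2.55 TPM with C2S and 0 to 0.38 TPM without, and their part in the results was not tested. Col1a2, Pdgfra, Lum, Epcam, Krt8, Cdh1, Cd3e and Ms4a1 were among those that had no counts. Mitochondrial transcripts took 1.00 to 1.15% of counts with C2S and 1.43 to 1.57% in the controls.

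Ribosomal protein mRNAs as a group were slightly more abundant after C2S. Of 83 members with enough counts to test, 49 (59.0%) rose and 2 fell, by edgeR's quasi-likelihood test adjusted over all 11561 tested genes, where 27% of all genes rose and 28.4% fell. The median log2 fold change of the members was 0.19, a 1.14-fold rise, against -0.00 for all genes tested. The middle range of members lay between 0.13 and 0.27, narrower than that of all genes (-0.36 to 0.31). Most of all genes are less abundant than most members, and this range was not taken for other abundant genes. The 49 rises were between 1.11- and 1.32-fold, and the larger of the 2 falls reached 0.671 times the control level. No member was therefore called with a change of 1.5-fold or more, as 27% of all tested genes were. Fitted changes were above 0 for 75 members and below 0 for 8. Both falls were of paralog copies, Rpl7l1 and Rps27l. Without the paralog copies and Rps19bp1, 49 of 77 tested members rose and 0 fell. In bulk RNA, fewer cells of a type and less RNA per cell cannot be told apart, and each change is relative to the other genes of the library.

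**Figure D1:**
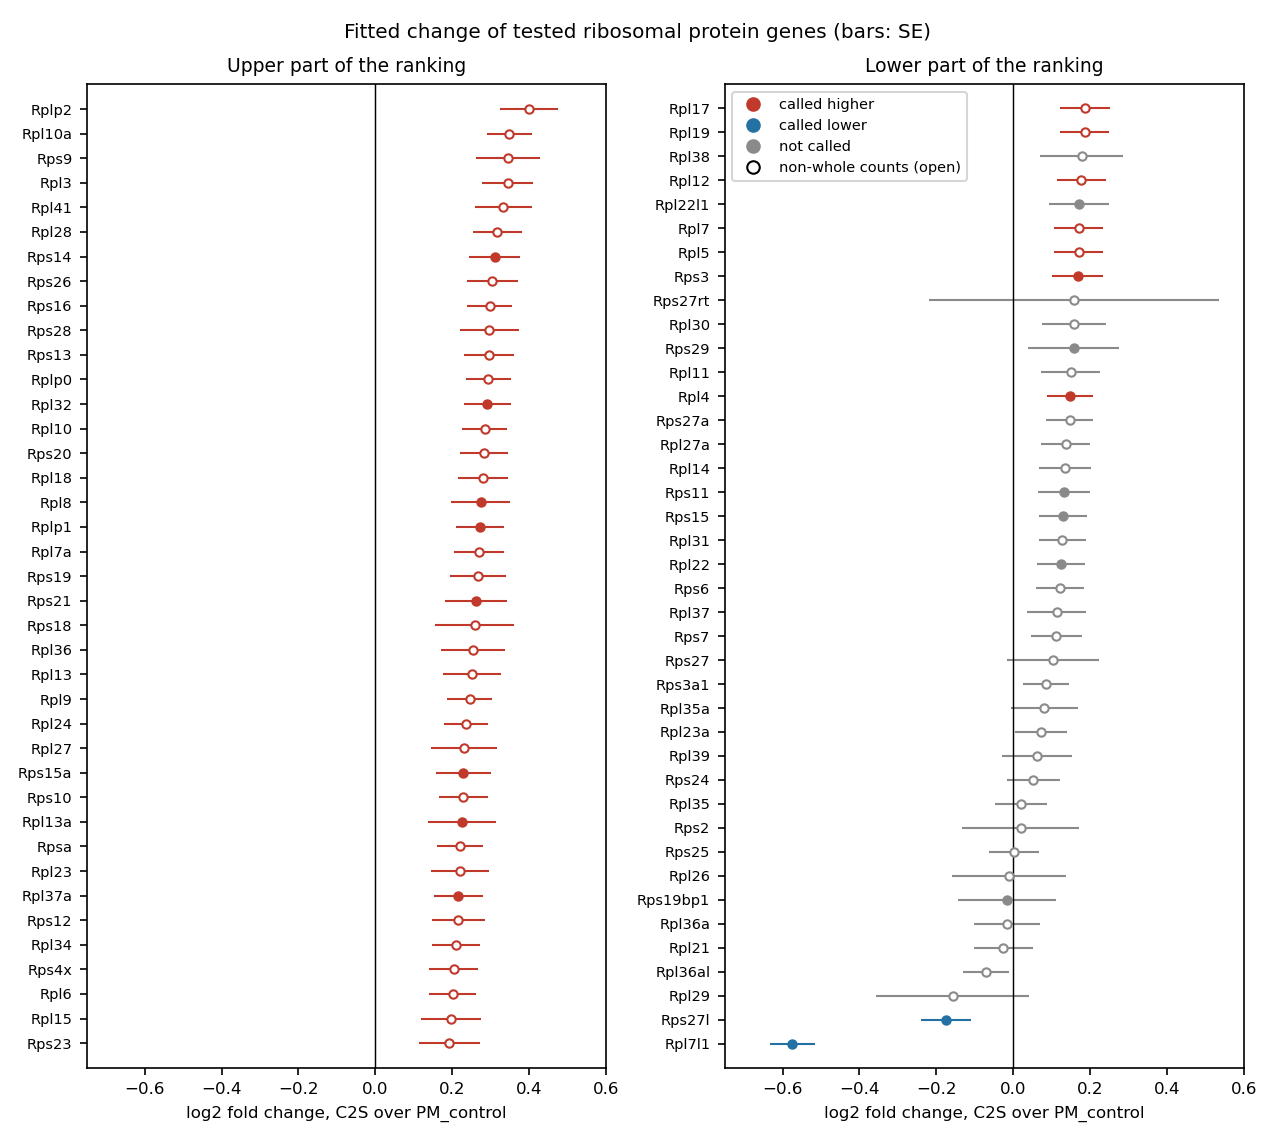
Log2 fold change of C2S over PM_control for 79 of the 83 tested members (x axis), ranked from the largest rise to the largest fall, with bars for the SE and open points for genes with non-whole estimated counts. The called rises lie between 0.15 and 0.40, and Rpl7l1 at -0.58 stands apart from the rest.

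Most members are abundant, so the same counts are given for abundant genes. Among the 2352 tested genes that averaged 100 CPM or more, 40.7% rose and 24.4% fell, and their median log2 fold change was 0.09. Of the 76 members at that level 48 rose and their median was 0.20, while the 2276 other genes at that level had a median of 0.08. The C2S values lay above all controls for 40 members and below them for 2, where 29.8% and 31.4% of all tested genes did so, and the groups overlapped for 41 members. Of the 49 called rises, 37 had groups that did not overlap and 12 did overlap.

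Relative to the control mean, the median member was higher by 0.15, 0.17 and 0.25 (log2) in C2S 1, 2 and 3, and it stood at -0.04, -0.00 and 0.05 in the 3 controls. Members above their control mean numbered 66, 71 and 78 with C2S against 12, 37 and 72 without, so that by this count PM_control 3 lay within the C2S range. The share of all counts held by the 86 members was 5.01%, 4.97% and 5.22% with C2S and 4.48%, 4.64% and 4.88% in the controls, which gave means of 5.07 ± 0.136% and 4.67 ± 0.202% (SD, n = 3 each). These groups did not overlap, but the highest control, PM_control 3, came close to the lowest C2S library. Wilson 95% intervals of the shares were within 0.0145 percentage points of each value and cover counting error only. Without mitochondrial genes in the total the means were 5.12% and 4.74%, and as a share of summed TPM they were 18.3 ± 0.419% and 17.1 ± 0.499%.

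**Figure D2:**
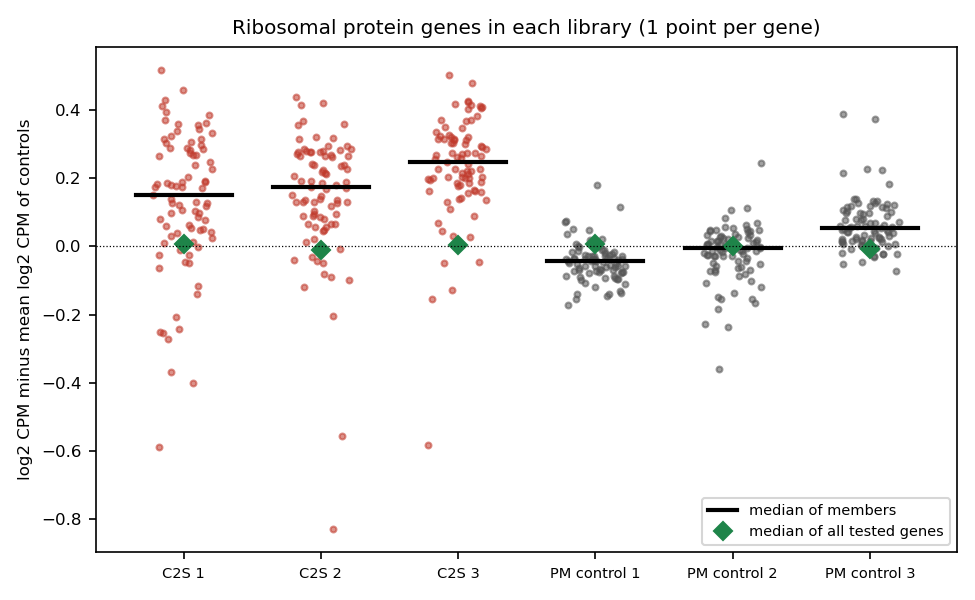
Log2 CPM of each tested member minus its mean in the controls (y axis) in each of the 6 libraries, 1 point per gene, with the members' median as a black line and the median of all tested genes as a green diamond. The members' medians are 0.15 to 0.25 in C2S and -0.04 to 0.05 in the controls, while all-gene medians stay near 0.

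On the TPM scale, which allows for transcript length, members were among the most abundant mRNAs of these cells: 50 of the 100 genes with the highest mean TPM were members, and tested members ranged from 23.5 to 8538 TPM. Rplp1, an acidic protein of the ribosomal stalk, was the highest of the members at 8972 ± 253 TPM with C2S and 8105 ± 347 TPM without (SD, n = 3 each). Rps27, a zinc-finger protein of the small subunit, came next at 8078 ± 1536 TPM with C2S and 8458 ± 708 TPM without, a difference smaller than its spread. It was followed by Rps12, Rps25 and Rpl41, with 4170, 4130 and 4010 TPM over all 6 libraries. Spread between replicates is given by mRNA length, with no test. The 7 tested members with an effective length under 150 bases had a median coefficient of variation of 18.8% with C2S and 10.8% in the controls, against 6.48% and 4.54% for the other 76.

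The ribosomal stalk is the flexible arm of the large subunit that recruits elongation factors. All 3 of its members rose, where 59.0% of all tested members and 27% of all tested genes did. Rplp2 (ENSMUSG00000025508, chr7:141447370-141451585, 5 exons) measured 709, 602 and 730.4 CPM in the C2S libraries and 485, 506 and 559 CPM in the controls, the largest fitted rise of any member (0.40 ± 0.08 SE, edgeR adjusted p = 0.000268; such values in parentheses are log2 fold changes of C2S over PM_control). All its C2S values were above its controls. Rplp0, the base of the stalk, measured 1575, 1542 and 1567 CPM with C2S against 1224, 1288 and 1309.7 CPM without (0.29 ± 0.06 SE, edgeR adjusted p = 0.000457), with tight C2S values well above the controls. Rplp1 measured 1446, 1511 and 1598 CPM with C2S against 1221, 1283 and 1268 CPM without (0.27 ± 0.06 SE, edgeR adjusted p = 0.00124). Its groups were likewise apart, and unlike Rplp0 and Rplp2 it had whole counts in every library, that is, no sign of shared reads.

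In the 5S particle Rpl5 and Rpl11 hold the 5S ribosomal RNA, and it binds the p53 regulator Mdm2 when assembly is disturbed. Of the 2 genes Rpl5 rose, where 59.0% of all tested members and 27% of all tested genes did. Rpl5 measured 393, 425 and 456 CPM with C2S against 391, 359 and 381 CPM without (0.17 ± 0.06 SE, edgeR adjusted p = 0.0338), a rise just past the threshold in which the lowest C2S library was close to the highest control. It shares reads with pseudogenes, and 24.3% of its exon length overlaps Fam69a. Rpl11 measured 622, 506 and 595 CPM with C2S against 490.2, 499 and 565 CPM without (0.15 ± 0.08 SE, edgeR adjusted p = 0.11), and its groups overlapped, with C2S 2 below PM_control 3. The Rpl5 call was lost without C2S 3, PM_control 2 or PM_control 3 (edgeR adjusted p up to 0.178).

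Of 9 listed proteins around the end of the exit tunnel, through which the new chain leaves the ribosome, 2 rose, a share near the 27% of all tested genes, and the median log2 fold change was 0.13. Rpl19 measured 839, 787 and 891 CPM with C2S against 724, 712 and 777 CPM without (0.19 ± 0.06 SE, edgeR adjusted p = 0.0211). Rpl17 measured 609.7, 716 and 685 CPM with C2S against 571, 593 and 601 CPM without (0.19 ± 0.07 SE, edgeR adjusted p = 0.0221). In both the lowest C2S library was only just above the highest control, and both calls were lost without C2S 3, PM_control 1 or PM_control 2, that of Rpl17 also without C2S 2 (edgeR adjusted p up to 0.113 for Rpl19 and 0.091 for Rpl17). The other 7, Rpl22, Rpl23a, Rpl26, Rpl31, Rpl35, Rpl38 and Rpl39, had fitted changes between -0.01 and 0.18. That this share differs from that of other members was not tested. In simulated data with the counts of these libraries, 28% of genes changed by 1.2-fold were recovered and 92% of those changed by 1.5-fold. Only 50 genes were changed at each fold size, far fewer than were called here. They shared a common spread and included less abundant genes. These shares therefore do not say how many rises of members went uncalled. Among the members, the largest rise that was not called was that of Rpl38 (0.18, 1.13-fold).

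Among the other large-subunit genes, Rpl10a, a protein of the L1 stalk that guides the leaving tRNA, had the smallest adjusted p of the called rises. It measured 789, 773 and 846 CPM in the C2S libraries and 639, 625 and 628 CPM in the controls (0.35 ± 0.06 SE, edgeR adjusted p = 8.82e-05), so that even the lowest C2S library exceeded every control by more than the spread of either group. Rpl3, which reaches into the peptidyl transferase region, measured 677, 789.9 and 792 CPM with C2S against 608, 587 and 584 CPM without (0.34 ± 0.07 SE, edgeR adjusted p = 0.000334). Rpl28 measured 846, 755 and 846 CPM with C2S against 619, 666 and 679 CPM without (0.32 ± 0.06 SE, edgeR adjusted p = 0.000509). Rpl41, the smallest ribosomal protein, measured 581, 546 and 658 CPM with C2S against 479, 434 and 505 CPM without (0.33 ± 0.07 SE, edgeR adjusted p = 0.00107). These 4 had groups that did not overlap and all carried non-whole counts. Over the 48 tested large-subunit members 30 rose, a share near the 59.0% of all tested members (27% of all tested genes). The median log2 fold change of the large-subunit members was 0.19. Other called rises ran from 0.15 ± 0.06 for Rpl4, whose long loop lines the tunnel, to 0.29 ± 0.06 for Rpl32, and also took in Rpl6, Rpl7a, Rpl8, Rpl9, Rpl12, Rpl13, Rpl13a, Rpl15, Rpl18, Rpl23, Rpl24, Rpl27, Rpl34, Rpl36 and Rpl37a. Rpl4 measured 2302 ± 36.5 against 2077 ± 55.7 CPM (mean ± SD, n = 3 each), and its call was lost without C2S 1, C2S 3, PM_control 1 or PM_control 2 (edgeR adjusted p up to 0.147). In Rpl13, Rpl13a, Rpl15, Rpl23, Rpl27 and Rpl36 the groups overlapped.

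In the small subunit 19 of its 33 tested members rose and 1 fell, with a median log2 fold change of 0.20. Of the 6 proteins along the mRNA entry and exit channel, 5 rose, where 59.0% of all tested members and 27% of all tested genes did. Rps26, which touches the mRNA just ahead of the start codon, measured 664, 728 and 776 CPM with C2S against 567, 574 and 615 CPM without (0.30 ± 0.07 SE, edgeR adjusted p = 0.000906). Rpsa and Rps28, at the exit side, had log2 fold changes of 0.22 ± 0.06 and 0.30 ± 0.08 (adjusted p = 0.00502 and 0.00349), and Rps3, at the entry, 0.17 ± 0.07 (adjusted p = 0.0412, groups overlapping). The Rps3 call was lost without C2S 1, C2S 3, PM_control 1 or PM_control 2 (edgeR adjusted p up to 0.15). Rps2 is described with its pseudogenes.

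The largest rise of the small subunit was that of Rps9, a protein bound early in assembly, with 848, 647 and 765 CPM in the C2S libraries and 572, 569 and 638 CPM in the controls (0.34 ± 0.08 SE, edgeR adjusted p = 0.00204). Its C2S libraries were spread widely, and C2S 2 was just above PM_control 3. Rps14, which lies in the platform and whose loss is tied to the anaemia of 5q deletion, measured 587, 695 and 650.4 CPM with C2S against 513, 542 and 503 CPM without (0.31 ± 0.07 SE, edgeR adjusted p = 0.000838), with whole counts in every library and no overlap of the groups. In the head and decoding region 3 of 5 members rose, a share near the 59.0% of all tested members (27% of all tested genes). Rps19, the gene most often mutated in Diamond-Blackfan anaemia, measured 619.5, 529.6 and 601 CPM with C2S against 449, 476 and 530.3 CPM without (0.27 ± 0.07 SE, edgeR adjusted p = 0.00515), a called rise in which C2S 2 was level with PM_control 3. Rps12 measured 809, 926 and 933 CPM with C2S against 717, 789 and 789.7 CPM without (0.22 ± 0.07 SE, edgeR adjusted p = 0.0131), a call lost without C2S 3 or PM_control 1 (adjusted p up to 0.079). Other called rises of the small subunit, those of Rps4x, Rps10, Rps13, Rps15a, Rps16, Rps18, Rps20, Rps21 and Rps23, lay between 0.19 and 0.30, with overlapping groups in Rps18, Rps21 and Rps23. The call of Rps23 was lost without C2S 1, C2S 3, PM_control 1 or PM_control 2 (edgeR adjusted p up to 0.216).

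Some abundant members did not pass the test. Rps25, needed for initiation at some viral internal ribosome entry sites, measured 811, 937 and 898 CPM with C2S against 837, 892 and 912 CPM without, with a log2 fold change of 0.00 ± 0.07 and groups that overlapped throughout. It shares reads, and 17.2% of its exon length overlaps Trappc4. Rps27a, which is made as a fusion with ubiquitin, measured 765, 845 and 850.4 CPM with C2S against 714, 743 and 764 CPM without (0.15 ± 0.06 SE, edgeR adjusted p = 0.0545): its groups did not overlap, yet it just missed the threshold. Rps6, the target of the S6 kinases below mTORC1, measured 1082, 1110.0 and 1111 CPM with C2S against 945, 1008 and 1082 CPM without (0.12 ± 0.06 SE, edgeR adjusted p = 0.112), with PM_control 3 level with C2S 1. Of the 18 genes listed for Diamond-Blackfan anaemia, an inherited failure of red cell production, 9 rose, with a median of 0.16. Of all tested members 59.0% rose, and of all tested genes 27%. Rps28, which is on that list of 18, measured 192, 198 and 218 CPM with C2S against 173, 145 and 178 CPM without.

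In the list of paralogs 4 copies were tested (Rpl7l1, Rpl22l1, Rpl36al and Rps27l), of which 2 fell, and of 8 parent genes Rpl3, Rpl7, Rpl10 and Rps4x rose. Among all tested genes 27% rose and 28.4% fell. A further copy, Rps27rt, was tested outside that list. Rpl7l1 (ENSMUSG00000063888, chr17:46773907-46782672, 7 exons) encodes a relative of Rpl7 that acts in ribosome assembly, and showed the larger of the 2 falls. It measured 123, 126 and 123 CPM in the C2S libraries and 182, 191 and 181 CPM in the controls, with groups that did not overlap (-0.58 ± 0.06 SE, edgeR adjusted p = 3.31e-07), a level 0.671 times that of the controls. Its parent Rpl7, with a coding sequence 50.1% identical, measured 806, 935 and 884 CPM with C2S against 757, 798 and 777 CPM without and rose (0.17 ± 0.06 SE, edgeR adjusted p = 0.0332), a call that was lost without any 1 library other than C2S 1 (adjusted p up to 0.132). Under all 21 alternatives Rpl7l1 kept its direction and its call, with log2 fold changes from -0.67 to -0.47.

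Rps27l, whose coding sequence is 76.1% identical to that of Rps27 and which is known as a target of p53, measured 150.4, 169.5 and 163 CPM with C2S against 173, 179.9 and 192 CPM without (-0.17 ± 0.06 SE, edgeR adjusted p = 0.0307). Its groups did not overlap, but C2S 2 was close to PM_control 1. Its call was lost without C2S 1, C2S 3, PM_control 2 or PM_control 3 and with DESeq2 (adjusted p up to 0.16). With the trend over GC content removed the direction turned and it was called higher, at 0.24. All genes also moved up there, to a median of 0.13, since that setting corrected the shift between groups a further time. At 40.5% its GC content is below the members' median of 51.7%. Rps27 itself measured 372, 613 and 560.3 CPM with C2S against 470.0, 481 and 486 CPM without (0.10 ± 0.12, adjusted p = 0.486 with edgeR), where C2S 1 was low and the other C2S libraries were above every control.

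Rpl22l1 measured 56.6, 58.2 and 58.8 CPM with C2S against 48.9, 53.8 and 51.4 CPM without. Rpl22, which binds RNA at the outer surface of the large subunit, measured 244, 223 and 252 CPM with C2S against 214, 216 and 229 CPM without. Neither passed the test (0.17 ± 0.08, adjusted p = 0.0748, and 0.13 ± 0.06, adjusted p = 0.0976, with edgeR), although the groups of Rpl22l1 did not overlap. Rpl36al measured 161, 154 and 162 CPM with C2S against 159, 169 and 173 CPM without (-0.07 ± 0.06, adjusted p = 0.332). Rpl36a, with a coding sequence 87.9% identical, measured 159.9, 139.8 and 179 CPM with C2S against 162, 146 and 178 CPM without (-0.02 ± 0.09, adjusted p = 0.883). Their groups overlapped, both share reads, and 24.5% of the Rpl36al exons overlap another gene, Gm49383.

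Rpl10l and Rpl39l, copies of Rpl10 and Rpl39 known from testis, had 0 counts in all 6 libraries, and Rpl3l, a form of heart and skeletal muscle, had 3 counts over the C2S libraries and 6 over the controls. Of their parents, Rpl3 is given above, and Rpl10, which completes the subunit late in assembly, measured 1205, 1177 and 1160.0 CPM with C2S against 942, 988 and 979 CPM without (0.28 ± 0.06 SE, edgeR adjusted p = 0.000515), with groups that did not overlap. Rpl39, of the exit tunnel, measured 206, 284 and 276 CPM with C2S against 233, 252 and 247 CPM without (0.06 ± 0.09 SE, edgeR adjusted p = 0.581), with C2S 1 below every control and the other C2S libraries above. Rps27rt, a gene whose coding sequence is identical to that of Rps27, held 1.28 to 2.28 CPM, and Rps19bp1 16.4 to 19.5 CPM, both with overlapping groups. That copies and parents differ in their change was not tested.

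**Figure D3:**
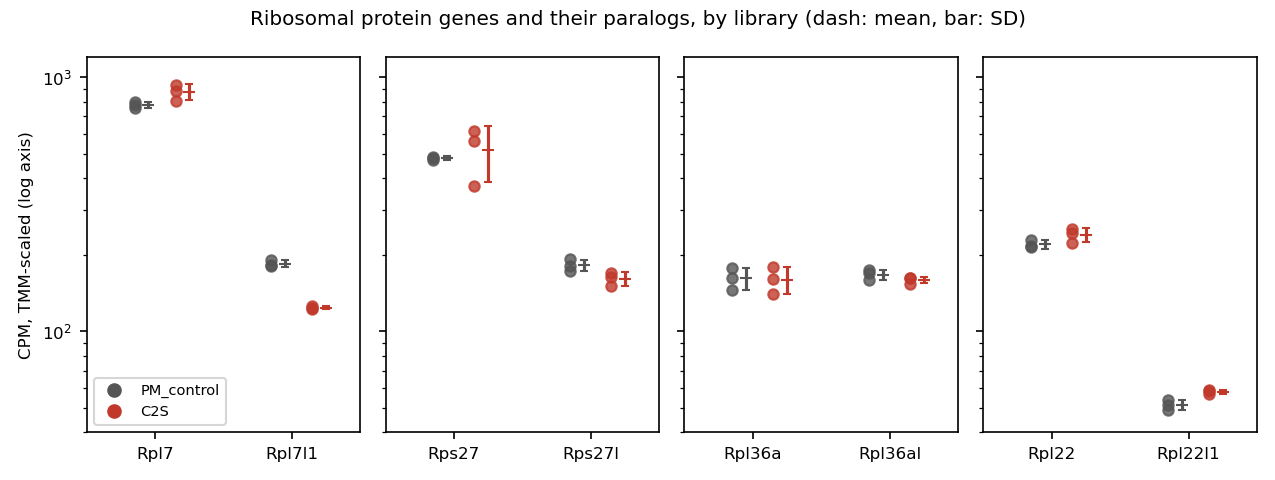
CPM of 4 parent genes and their paralogs (y axis, log scale) in the 3 control and 3 C2S libraries, with the mean as a dash and the SD as a bar. Rpl7l1 falls from about 185 to 124 CPM while Rpl7 rises from 777 to 875 CPM, the C2S values of Rps27l lie just under its controls, and the groups of Rps27, Rpl36a, Rpl36al and Rpl22 overlap.

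Shared reads bear on most of these values. An estimated count that was not whole in some library, a sign that reads were divided between genes, was found for 64 of the 83 tested members (77.1%), against 10.8% of all tested genes. The 19 tested members with whole counts held 11 rises and 2 falls with a median log2 fold change of 0.17, and the 64 others 38 rises with a median of 0.19. Both shares of rises are near the 59.0% of all tested members (27% of all tested genes). When 1050 pseudogenes with at least 90% identity were matched to the members, 309 of them had counts, and they held 11.1% of the counts of members and matched pseudogenes together. For 13 members the pseudogene share was at least 10%, and for 7 it was at least 50%.

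Rps2, a protein of the mRNA entry site, shows how far this can go: 99.1% of its family's counts lay on pseudogenes, nearly all on Rps2-ps10, which is 99.36% identical to it. Rps2 alone measured 10.7, 14.3 and 13.9 CPM with C2S against 13.4, 12.03 and 12.8 CPM without, with overlapping groups (0.02 ± 0.15, adjusted p = 0.919 with edgeR). Summed with its pseudogenes it measured 1681, 1328 and 1574 CPM with C2S against 1214, 1206 and 1303 CPM without, with groups that did not overlap, and rose by 0.30 (adjusted p = 0.00223 with edgeR). Which of the copies was transcribed cannot be told apart from these tables.

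Rpl29 had 94.8% of its family's counts on pseudogenes and turned from -0.16 ± 0.20 on its own to 0.17 (edgeR adjusted p = 0.0273) when summed. Rpl26 had 95.8% of its family on pseudogenes and was called neither way (-0.01 and 0.11). Rpl3, with 53.8% there, mostly on Rpl3-ps1, and Rplp0, with 43.3%, rose by either count (0.31 and 0.31 when summed). With all families summed, an alternative added after the data were seen, 55 members rose and 2 fell, where 27.7% of all tested genes rose. Of the 49 rises 48 were among them, Rpl5 was not (0.12, adjusted p = 0.0829), and Rpl27a, Rpl29, Rpl30, Rpl35a, Rps2 and Rps27a were among those added.

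**Figure D4:**
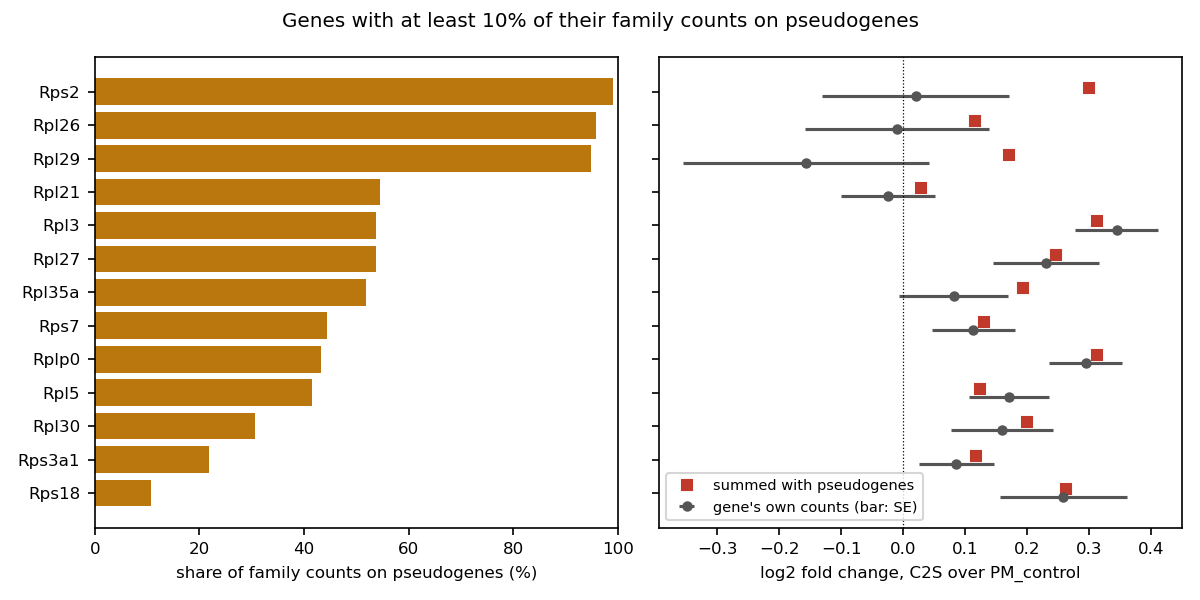
Left, share of the counts of a member and its matched pseudogenes that lay on the pseudogenes (percent), for the 13 members at 10% or more. Right, log2 fold change of C2S over PM_control from the gene's own counts (grey, bar: SE) and from the sum (red): Rps2 goes from 0.02 to 0.30 and Rpl29 from -0.16 to 0.17.

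Members share features of gene structure that the symbol rule did not use. They had a median of 5 exons and an effective length of 413 bases, against 9 exons and 2247 bases for tested protein-coding genes. A small nucleolar RNA gene lay inside 30 of the 86 members (34.9%), against 1.83% of tested protein-coding genes. Of these host genes 20 of 30 rose and of the other tested members 29 of 53, and both medians were 0.19. Both shares are near the 59.0% of all tested members that rose (27% of all tested genes). Above the members' median GC content the median log2 fold change was 0.23, and in the rest 0.17, and across the 83 genes the Spearman correlation of change with GC content was 0.28, over points from the same 6 libraries. With the GC trend over all genes removed it was -0.35. Exons overlapped those of another gene by at least 10% for 12 members, among them Rpl35 with Wdr38 (66.2%), Rpl23a with Tlcd1 (59.7%), Rpl24 with Gm28037 (47.0%) and Rpl13a with Gm45713 (29.4%), and these changes are uncertain.

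The 3 listed ribosomal proteins with other symbols also rose, where 27% of all tested genes and 40.7% of those at 100 CPM or more did. Fau, which encodes a ubiquitin-like fusion with eS30, rose (0.30 ± 0.07 SE, edgeR adjusted p = 0.00139). Rack1, the scaffold on the small subunit, rose (0.31 ± 0.06, adjusted p = 0.000238). Rack1 measured 1521, 1565 and 1563 CPM with C2S against 1234, 1269 and 1251 CPM without, and the groups of all 3 genes did not overlap. Fau had non-whole counts.

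Of 22 other mRNAs known to carry a TOP tract, 11 rose and 1 fell, with a median of 0.14, where 27% of all tested genes and 40.7% of those at 100 CPM or more rose. The translation initiation factor gene Eif4a2 rose from 82.1, 76.1 and 78.0 CPM to 119.5, 124 and 129.5 CPM (0.66 ± 0.07 SE, edgeR adjusted p = 3.37e-07). Eif3f rose by 0.40 ± 0.06 (adjusted p = 3.76e-05) and Pabpc1, the poly(A)-binding protein, by 0.40 ± 0.07 (adjusted p = 0.000183). The elongation factors Eef1a1 and Eef2 rose by 0.18 and 0.32, sizes within the range of the members. Nap1l1, a histone chaperone, was the 1 that fell (-0.19 ± 0.07, adjusted p = 0.0238), with groups that overlapped.

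Of 23 tested genes of mTORC1 and of TOP mRNA control, 6 rose and 7 fell, with a median of -0.09, shares near those of all tested genes (27% and 28.4%). Ddit4 and Sesn2, inhibitors of mTORC1 signalling that are induced by stress, had the largest rises. Sesn2 measured 276, 255 and 260.0 CPM with C2S against 27.3, 24.5 and 21.8 CPM without (3.42 ± 0.08 SE, edgeR adjusted p = 2.47e-15). Ddit4 measured 57.2, 38.4 and 40.5 CPM with C2S against 3.67, 3.03 and 3.04 CPM without (3.80 ± 0.18 SE, edgeR adjusted p = 2.23e-11), and in neither did the groups overlap. Tsc2, another inhibitor, rose by 0.46 ± 0.08 (adjusted p = 9.24e-05). Mlst8, a subunit of mTORC1, fell (-0.99 ± 0.11, adjusted p = 1.02e-06, 22.5% exon overlap with Bricd5), as did the RNA-binding proteins Tial1 (-0.56 ± 0.07, adjusted p = 6.48e-06) and Larp4 (-0.47 ± 0.07, adjusted p = 1.65e-05). Larp1, which binds the TOP tract itself, measured 788, 816 and 802 CPM with C2S against 744, 745 and 719.5 CPM without and did not pass the test (0.12 ± 0.06, adjusted p = 0.0744).

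Of 14 tested chaperones and importers of ribosomal proteins, 1 rose and 4 fell, with a median of -0.07, where 27% of all tested genes rose and 28.4% fell, so the share of falls was near that of all genes. Grwd1, the chaperone of Rpl3, measured 34.9, 34.5 and 33.0 CPM with C2S against 83.6, 90.6 and 90.3 CPM without (-1.37 ± 0.08 SE, edgeR adjusted p = 3.48e-10), and the groups were far apart. Heatr3, which helps import Rpl5, fell by 0.25 on the log2 scale (adjusted p = 0.00651), and Nap1l1, named above, also fell. The importin gene Ipo4 rose (0.32 ± 0.06, adjusted p = 0.000273), with an exon overlap of 55.3% with Gm49378, and Tsr2, the chaperone of Rps26, fell (-0.27 ± 0.10, adjusted p = 0.0384), with an overlap of 30.2% with Fgd1.

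Of 17 tested genes that act on stalled or surplus ribosomes, 7 rose and 5 fell, with a median of -0.16, where 27% of all tested genes rose and 28.4% fell. Rnf10, a ubiquitin ligase for small-subunit proteins, measured 493, 510.1 and 501 CPM with C2S against 332, 361 and 335 CPM without (0.55 ± 0.06 SE, edgeR adjusted p = 5.15e-07). Usp10, which removes such ubiquitin, measured 74.7, 98.2 and 90.8 CPM with C2S against 154, 156 and 145 CPM without (-0.79 ± 0.08 SE, edgeR adjusted p = 5.29e-07). Both pairs of groups were far apart. Mdm2, the ligase that the 5S particle binds, rose by 0.51 ± 0.07 (adjusted p = 7.4e-06), and Zfp598, the ubiquitin ligase of collided ribosomes, by 0.50 ± 0.09 (adjusted p = 9.5e-05). Abce1, the recycling factor, fell (-0.48 ± 0.06, adjusted p = 2.01e-06), as did G3bp1 (-0.27 ± 0.06, adjusted p = 0.000606), a partner of Usp10.

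Of 11 factors known to act at promoters of ribosomal protein genes, 2 rose and 7 fell, with a median of -0.27, where 27% of all tested genes rose and 28.4% fell. Myc, which drives ribosome production in growing cells, fell from 5.51, 7.18 and 4.93 CPM to 0.688, 1.08 and 1.59 CPM (-2.40 ± 0.33 SE, edgeR adjusted p = 1.11e-05). Sp1 measured 88.7, 97.1 and 101 CPM with C2S against 158, 139.5 and 142 CPM without (-0.62 ± 0.07 SE, edgeR adjusted p = 1.47e-06) and Sp3 fell as well (-0.54 ± 0.10, adjusted p = 0.000267). Gabpb1, a subunit of an ETS-type factor, rose (0.46 ± 0.09, adjusted p = 0.000339), and E2f1, a factor of the cell cycle, rose by 0.29 ± 0.07 (adjusted p = 0.00288). Of the genes named from these lists, Eef1a1, Pabpc1, Nap1l1, Larp4, Ipo4 and G3bp1 had non-whole counts. Any link between these genes and the members' change was not tested.

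The members' count depended on the setting, in scaling and in test. With library sizes alone 23 of 83 members rose and 3 fell, where 21.4% of all genes rose, and all genes shifted by -0.09. On log2(TPM + 1) limma called 0 rises and 2 falls, where 13.3% of all genes rose. At an unadjusted p under 0.05 limma called 6 rises there, against 50 by DESeq2 and 51 by limma-voom after adjustment. The median on log2(TPM + 1) was 0.09 for members and -0.09 for all genes. That setting changed the test as well as the scaling. Library sizes alone gave a members' median of 0.10 with 23 rises, so the 0 rises cannot be put down to scaling alone. With the trend over GC content removed, 66 rose and 1 fell, where 36.5% of all genes rose. The medians were 0.29 for members and 0.13 for all genes. That trend was drawn from counts scaled by library totals and was applied on top of the TMM factors. The shift between groups was thus corrected a further time, so these counts do not show GC removal alone. Without C2S 3 the rises fell to 31, where 24.9% of all genes rose. Of the 49 rises 29 stayed called without each library in turn. The other 20 lost the call without at least 1 library. The distance between the members' median and that of all genes was between 0.16 and 0.22 in every setting but DESeq2 (0.05) and no low-count filter (0.06), where many genes with few counts enter the median of all genes.

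**Figure D5:**
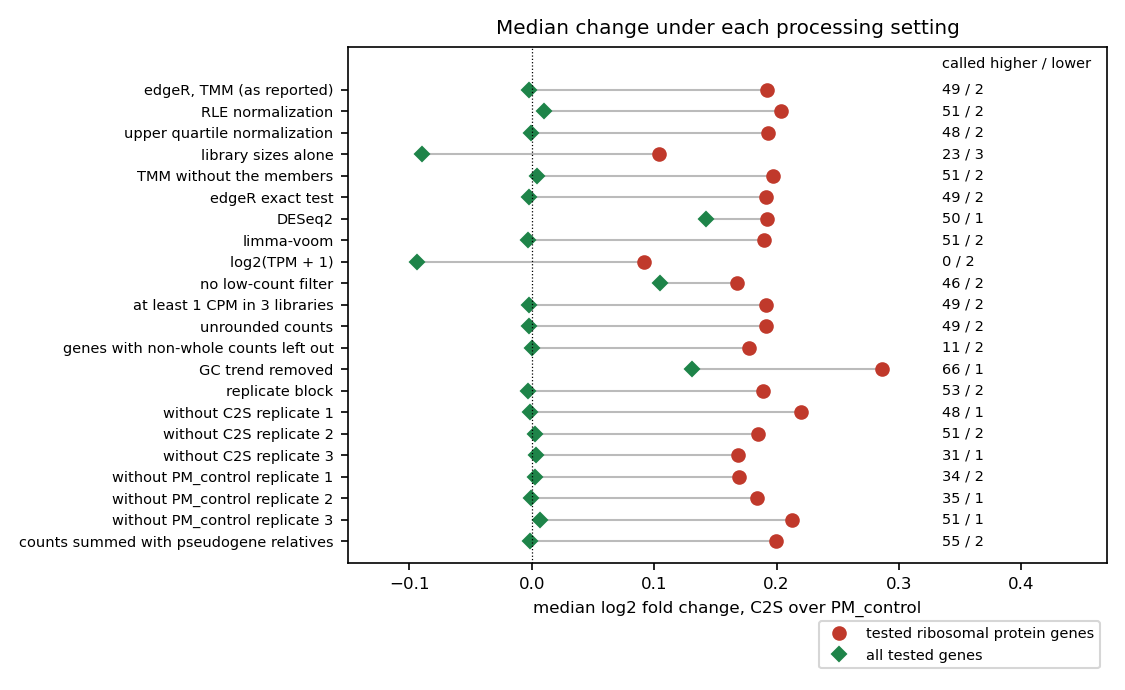
Median log2 fold change (x axis) of the tested members (red) and of all tested genes (green) under each processing setting, with the number of members called higher and lower at the right. The members' median is to the right of the median of all genes in each setting, while the number of calls goes from 0 to 66.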

How the data were processed

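Total RNA of 6 RAW264.7 libraries was sequenced, 3 per group by sample title. Per the series design text, Trizol-extracted RNA went into Illumina TruSeq RNA libraries, and reads were trimmed with fastp, aligned to mm10 with STAR and counted with RSEM, and the authors compared groups with edgeR. STAR, RSEM and mm10 are also named in the submitters' processing notes. Exon overlap was counted on either strand, since neither strandedness nor the annotation and tool versions are given in the sources used here. The authors deposited RSEM expected counts per gene, in which reads that fit several genes are shared out, and TPM, scaled for effective length and depth, per the file headers. The deposited FPKM values were not used. Every column belonged to a named sample.

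Symbols were found for 52403 of 52636 genes, whose biotypes and coordinates come from GENCODE M21 (GRCm38). Of 373 genes matching the symbol rule, 281 of other biotypes and 6 with pseudogene names were left out, and 10 Rps6k genes beforehand. Counts were rounded, filtered with filterByExpr (minimum count 10, minimum total 15; 11561 genes, 99.9% of counts) and tested by quasi-likelihood in edgeR 4.0.16 under R 4.3.3, with TMM scaling, a model of group alone, and p-values adjusted by Benjamini-Hochberg over all genes at 0.05. Alternatives used limma 3.58.1 and DESeq2 1.42.0. The biological coefficient of variation (common) came to 7.52%. The SE is the log2 fold change divided by the square root of F. A count more than 0.005 from a whole number was taken as shared. Pseudogenes were matched by at least 90% identity over at least 100 bases and 50% of the shorter transcript. Replicates differed by more than sampling noise (chi-square over degrees of freedom 4.3 to 6.46), so each counted once.

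The fit was tested on simulated data for C2S against PM_control over 11407 genes, with 50 genes at each fold size: 28% were recovered at 1.2-fold, 92% at 1.5-fold, 98% at 2-fold and 100% at 4-fold, with 9 false calls. The members and gene lists were chosen with earlier results of these data known, so no test was run over a list. Values in every library are given for the 8 largest called changes per direction with groups apart, the 5 members of highest TPM, stalk and 5S genes, paralogs with parents and up to 2 per other role by adjusted p. Up to 3 genes per direction by adjusted p are named from each list. Rps6, Rpl4, Rpl29, Eef1a1, Eef2, Larp1 and Tsr2 were singled out beyond these limits after their values were seen. Some genes that these limits take in are counted but not reported here by name. Alternatives were other scalings, tests, filters and rounding, GC trend removal, a block for the replicate number, fits without shared-read genes or without each library, and, added later, sums with pseudogenes.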

Additional observations from a re-analysis of the deposited data

How the results depend on the processing

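At this depth and with 3 libraries a group, most 1.2-fold changes went unrecovered in simulated data, in which neither was varied. Far fewer genes were changed there than were called here, so that share does not carry over to the members. Whether reads belonged to a gene or its pseudogene could not be settled from the tables. The members' median stayed above that of all genes in each setting, and Rpl7l1 kept its call in each. For every change given here without a construction that explains it, the cause was not tested.

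With library sizes alone, 23 members and 6 TOP mRNAs were higher, 12 genes of mTORC1 and TOP control and 9 of ribosome stalling were lower, and the members' median was 0.10. On log2(TPM + 1), 0 members, 0 ribosomal proteins with other symbols, 3 TOP mRNAs, 0 chaperones, 2 stalling genes and 1 promoter factor were higher, 0 TOP mRNAs were lower, 1565 of all genes were higher, and the members' median log2 fold change was 0.092. At an unadjusted p under 0.05 limma called 6 members higher there. With shared-read genes left out before the fit, so that 19 members were tested, 11 members and 1 ribosomal protein with another symbol were higher, 0 TOP mRNAs lower and 0 chaperones higher. With the GC trend removed, 1 member was lower, 17 TOP mRNAs, 11 genes of mTORC1 and TOP control and 7 chaperones were higher, 0 TOP mRNAs, 1 chaperone, 2 stalling genes and 3 promoter factors were lower, and the members' median was 0.29. These counts do not show GC removal alone, since that setting also corrected the shift between groups a further time. DESeq2 called 1 member lower. Of all calls, 48.8% were higher as reported, 38.3% with library sizes alone, 35.2% on log2(TPM + 1) and 64.4% with the GC trend removed. As shares of all tested genes, the higher calls were 27.0%, 21.4%, 13.3% and 36.5% in the same order.

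Leaving out each library in turn gave 31 to 51 members higher and 1 to 2 lower, a members' median of 0.17 to 0.22, 7 to 12 TOP mRNAs higher and 0 to 1 lower, and 1 to 2 chaperones higher and 2 to 4 lower. In these fits 24.6 to 26.7% of all tested genes were higher. The fewest rises of members came without C2S 3 (31), PM_control 1 (34) and PM_control 2 (35). Rps27l reversed with the GC trend removed (0.24, where all genes stood at a median of 0.13), and Rpl29 with pseudogene sums (0.17). The start base itself lay in a TOP tract, as a C with at least 4 C or T letters after it, in 21.2% of members. Such a C lay within 20 bases in 80.3%, against 53.3% of all genes, in runs that could begin further upstream. No sign of pairing by replicate number was seen: deviations of same-numbered libraries correlated at -0.01, 0.07 and 0.03, and those of other pairs at -0.11 to 0.08. With 3 libraries a group, these values cannot show that the samples were unpaired. The replicate block gave 53 members higher and 2 lower, where 27.6% of all tested genes were higher.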
